A study of Rattus norvegicus with 12 samples.

Results

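The genes described here encode 10 proteins of transforming growth factor beta (TGF-beta) and bone morphogenetic protein (BMP) signalling in rat kidney: the ligands Tgfb1, Tgfb2, Tgfb3, Bmp4 and Bmp7, the receptors Tgfbr1 and Tgfbr2, the signal transducer Smad3, the inhibitory Smad7, and Ccn2 (also written Ctgf), a secreted target of the pathway. They were listed by name, and every gene probe whose annotation or description named one of them was taken, which gave 16 of the 33849 gene probes on the array. Of these 16 probes, 13 passed the filter on dim probes (a signal above background on 4 or more arrays) and were tested, among 25398 probes tested in all. The array annotation named 12706 genes in all, and each of the 10 members kept at least 1 tested probe.

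Kidney RNA from male F344 (Fischer) rats, an inbred strain long used in ageing research, was hybridised to 12 single-colour oligonucleotide arrays, 4 in each of 3 groups. The young group was 4 months old and fed freely, and the aged AL group was 24 months old and fed freely (ad libitum, AL). The aged CR group was 24 months old and under caloric restriction (CR), which per the labels started at 10 weeks of age with 10% less food, was raised to 25% at 15 weeks and reached 40% at 4 months. No allele or drug treatment distinguished the groups, all of which were anaesthetised with ketamine and xylazine before the kidneys were taken, and whole kidney was used, so that fewer cells of a type and less RNA per cell cannot be told apart.

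TGF-beta ligands are secreted in a latent complex and, once released, bind TGFBR2, which activates TGFBR1. The activated receptor phosphorylates SMAD3 and its relative SMAD2, which enter the nucleus with SMAD4 and raise the transcription of matrix and matrix-remodelling genes, while SMAD7 is induced by the same signal and shuts the receptor down. BMP ligands use related receptors and a separate set of Smads. In the kidney the TGF-beta branch is best known for its part in scarring of the tubular interstitium and the glomerulus, and BMP7 is known for its role in nephron formation.

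Several arrays of a group were no more different than repeat spots on a single array. Over 10799 bright probes, the spread of the log2 difference was taken as the median absolute deviation, scaled to the size of a standard deviation (SD). It was 0.116 between young arrays 1 and 2 and 0.104 between young arrays 3 and 4, whereas between these pairs it was 0.321 to 0.366. The limit for repeat spots came from an ordinary SD, on which outlying spots weigh more. The effect of these unlike measures on the joining was not tested. The 4 aged AL arrays differed by 0.0923 to 0.129, and all their pairs but 1 (arrays 1 and 4, 0.1275 against a limit of 0.123) lay within the limit for repeat spots. In the aged CR group, arrays 1 and 3 (0.128) and arrays 2 and 4 (0.139) lay within it, and the other pairs (0.164 to 0.224) did not. Arrays that could not be told from repeats were therefore averaged, which left 5 samples: 2 young, 1 aged AL and 2 aged CR. The tests below are over these 5 samples, and the fit with 12 arrays counted separately is given beside them as an alternative, in which p covers array-to-array spread only. The labels call the 4 samples of each group biological replicates.

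Arrays also differed in signal. The median background-subtracted intensity was 74.48 to 117 on the young arrays, lowest on arrays 1 and 2, 113.6 to 130 on the aged AL arrays and 129.7 to 158.6 on the aged CR arrays, and the share of gene probes above background was 64.4% to 71.4%, 72.5% to 74% and 72.8% to 75.7% in the same order. Two-sided exact permutation tests of both measures in the 3 comparisons gave unadjusted p from 0.0286 (the lowest possible with groups of 4) to 0.114, or 0.0571 to 0.114 once adjusted over the 6 tests. Slide series and scan were inferred from the image name in the array headers. The series is the first part of the slide name, and the scan is the part of the image name after it. On that reading the aged AL arrays were all of 1 slide series and 1 scan. The young arrays were all of another slide series and another scan, so for these groups scan, slide series and group cannot be told apart. The aged CR arrays shared the scan of the young arrays and were split between the slide series. Between aged CR and aged AL, scan and diet therefore cannot be told apart. Kidney identity was as labelled: all 5 loop of Henle and distal tubule markers, including Umod and Slc12a1, and all 4 collecting duct markers lay above background on every array.

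The promoter sequences of 3 genes are shown because these genes carry the patterns below: Ccn2 arrays of the 3 groups stood wholly apart, Tgfb1 had the largest difference with age among the 13 probes, and Bmp4 had the largest difference between the young samples. The sequences are from RefSeq on the GRCr8 assembly, which held 9 of the 10 genes (all but Bmp7), and give the 250 bases before the annotated start, 5′ to 3′ on the gene's strand. Capitals mark matches on either strand to any of 5 motifs searched, none of which contains another: GTCTAGAC, the Smad palindrome, CAGAC, the CAGA element to which Smads bind, GGCGCC, a GC-rich Smad element, GGAATG, the TEAD element, and TATAAA, the TATA element.
Ccn2, chr1:22624615-22624864, minus strand: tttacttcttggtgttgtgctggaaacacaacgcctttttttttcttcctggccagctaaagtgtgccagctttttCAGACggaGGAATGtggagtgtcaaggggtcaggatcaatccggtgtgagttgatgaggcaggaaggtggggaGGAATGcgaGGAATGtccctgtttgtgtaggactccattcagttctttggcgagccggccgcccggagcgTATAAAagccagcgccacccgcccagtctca
Tgfb1, chr1:90324062-90324311, plus strand: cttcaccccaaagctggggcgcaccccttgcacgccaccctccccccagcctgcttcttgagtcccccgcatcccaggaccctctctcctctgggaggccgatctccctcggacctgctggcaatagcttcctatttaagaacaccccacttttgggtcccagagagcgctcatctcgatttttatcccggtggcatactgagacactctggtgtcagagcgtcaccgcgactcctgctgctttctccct
Bmp4, chr15:22101934-22102183, minus strand: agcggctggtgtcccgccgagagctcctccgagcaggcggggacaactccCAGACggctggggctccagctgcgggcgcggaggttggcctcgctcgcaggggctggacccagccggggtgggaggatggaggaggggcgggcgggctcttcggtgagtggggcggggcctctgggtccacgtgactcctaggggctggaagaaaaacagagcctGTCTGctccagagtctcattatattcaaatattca
The Ccn2 stretch holds CAGAC 174 bases before the start, GGAATG at 166, 101 and 92 bases before it and TATAAA 31 bases before it. The Tgfb1 stretch holds none of the 5 motifs, and the Bmp4 stretch holds CAGAC at 200 and 35 bases before the start, the nearer one on the other strand. Among 33469 rat promoters of 300 bases, which also include 50 bases after the start, 50.1% hold CAGAC, 14.2% GGAATG, 14.2% TATAAA, 11% GGCGCC and 0.2% GTCTAGAC. A match describes these letters and not a bound site.

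**Figure D1:**
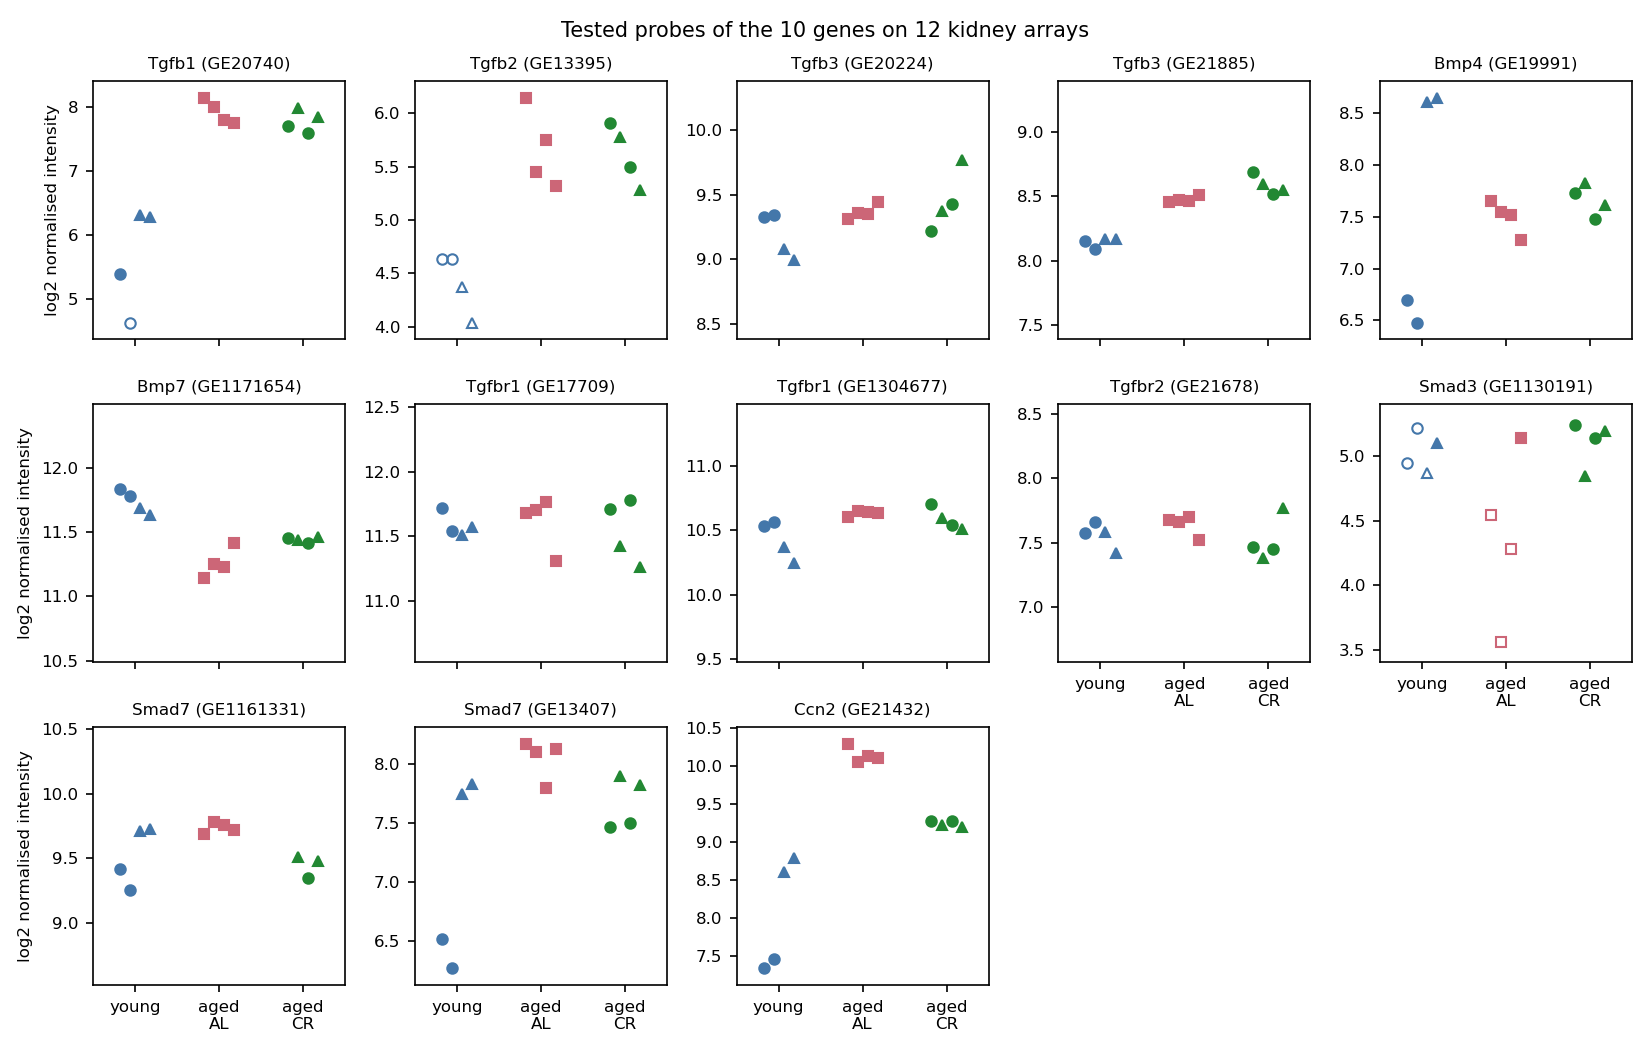
Log2 normalised intensity (vertical axes, each spanning at least 2 units and differing between panels) of the 13 tested probes on the 4 young, 4 aged AL and 4 aged CR arrays, with 1 point per array. Circles and triangles of 1 colour are the separate samples of a group, aged AL is a single sample, and open points lay at background: Tgfb1, Tgfb2 and Ccn2 lie higher on all 8 aged arrays than on the young arrays, and the young Bmp4 points split above and below both aged groups.

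Tgfb1 encodes the ligand most often tied to kidney fibrosis. Its probe GE20740 read 5.40, 4.64, 6.32 and 6.29 on young arrays 1 to 4 in log2 normalised intensity, 8.14, 8.0, 7.80 and 7.75 on the aged AL arrays, and 7.71, 7.99, 7.60 and 7.85 on the aged CR arrays. All 8 aged arrays lay above all young arrays, the aged groups overlapped, and 1 of the young arrays was not above background. Over samples the aged AL minus young difference was 2.26 (SE 0.56, 95% interval 0.79 to 3.73), a 4.79-fold higher level, with adjusted p = 0.181 in limma. Aged CR minus young was 2.13 (SE 0.46, interval 0.93 to 3.33, adjusted p = 0.101). Aged CR minus aged AL was -0.13 (interval -1.60 to 1.33, adjusted p = 1). With 12 arrays counted separately the adjusted p was 0.000181 for aged AL against young and 0.00029 for aged CR against young. The second Tgfb1 probe, GE22124, was not above background on any array and was not tested.

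Tgfb2, a ligand of the same receptors, was at background in young kidney. Its probe read 4.64, 4.63, 4.37 and 4.04 on the young arrays, none of them above background, against 6.14, 5.45, 5.75 and 5.32 on the aged AL arrays and 5.92, 5.78, 5.5 and 5.28 on the aged CR arrays, all above it. The groups of different age did not overlap and the diets did. Because the young value was at background, the aged mean was set against the higher, array by array, of the dimmest signal above background and the probe's own. On that basis the level was 1.65-fold higher in aged AL and 1.6-fold higher in aged CR. Background was flagged spot by spot, so these are not strict lower limits. The probe met the filter on dim probes through the aged arrays alone. The fitted differences were 1.25 (SE 0.27, adjusted p = 0.151 over samples and 0.00057 over 12 arrays) and 1.2 (SE 0.22, adjusted p = 0.0816 and 0.000766).

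Tgfb3, the remaining TGF-beta ligand, was measured by a pair of probes that differed in size of change. GE21885 read 8.15, 8.09, 8.17 and 8.17 in young, 8.46, 8.47, 8.46 and 8.51 in aged AL, and 8.69, 8.59, 8.51 and 8.55 in aged CR, so that the groups followed each other without overlap. The steps were small: 0.33 for aged AL minus young (SE 0.19, adjusted p = 0.428 over samples, 0.00101 over 12 arrays), 0.44 for aged CR minus young (SE 0.16, adjusted p = 0.193 and 0.000152) and 0.11 for aged CR minus aged AL (SE 0.19, adjusted p = 1 and 0.261). GE20224 read 9.33, 9.34, 9.08 and 8.99 in young, 9.31, 9.35, 9.35 and 9.44 in aged AL, and 9.22, 9.37, 9.43 and 9.77 in aged CR, with overlap in every comparison. Its differences were 0.18 (interval -0.46 to 0.82) for aged AL and 0.26 (interval -0.26 to 0.79) for aged CR against young, and array median scaling turned both, to -0.04 and -0.01.

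Bmp4, a ligand expressed in kidney mesenchyme, had its widest spread within the young group. Its probe read 6.70 and 6.48 on young arrays 1 and 2 and 8.61 and 8.64 on young arrays 3 and 4, with all 8 aged arrays in the gap: 7.65, 7.54, 7.51 and 7.28 in aged AL and 7.73, 7.82, 7.48 and 7.61 in aged CR. The young samples thus differed by 2.04, more than either aged group differed from the young mean. The aged AL minus young difference was -0.11 (SE 0.84, interval -2.31 to 2.08, adjusted p = 0.954) and aged CR minus young was 0.05 (SE 0.68, interval -1.74 to 1.85, adjusted p = 0.968). The direction was set by the young sample used: without arrays 1 and 2 the aged AL difference was -1.13 (adjusted p = 0.00339), and without arrays 3 and 4 it was 0.91 (adjusted p = 0.00406), in fits that take their spread from the aged CR samples alone.

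Bmp7, which in mouse counteracts TGF-beta in tubular epithelium, differed from young in the opposite direction to Tgfb1, Tgfb2 and Tgfb3. The probe, named through an expressed sequence tag, read 11.84, 11.78, 11.69 and 11.63 in young, 11.14, 11.25, 11.23 and 11.42 in aged AL, and 11.46, 11.43, 11.42 and 11.46 in aged CR. Every aged array lay below every young array, and the restricted arrays lay between, with overlap with aged AL. Over samples the differences from young were -0.47 in aged AL (SE 0.20, interval -1.0 to 0.05, adjusted p = 0.327) and -0.29 in aged CR (SE 0.16, interval -0.72 to 0.14, adjusted p = 0.338), and over 12 arrays the adjusted p was 0.00041 and 0.00806. Aged CR minus aged AL was 0.18 (interval -0.34 to 0.70, adjusted p = 1 over samples and 0.137 over 12 arrays). Under array median scaling the differences from young were -0.95 and -0.92, and that between the diets 0.04.

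The tested receptor probes had small differences on the quantile-normalised scale, and those of Tgfbr1 depended on the scaling. Tgfbr1, the kinase that phosphorylates the Smads, had 4 probes, of which GE19960 was above background on no array and GE21707 on 1. The tested probe GE17709 read 11.72, 11.54, 11.51 and 11.57 in young, 11.68, 11.70, 11.76 and 11.31 in aged AL, and 11.71, 11.43, 11.78 and 11.26 in aged CR, with all groups overlapping. Its aged AL minus young difference was 0.03 (interval -0.63 to 0.69) and its aged CR minus young difference -0.04 (interval -0.58 to 0.50). GE1304677 read 10.53, 10.56, 10.37 and 10.25 in young, 10.60, 10.65, 10.64 and 10.63 in aged AL, and 10.71, 10.60, 10.54 and 10.51 in aged CR. The aged AL arrays lay just above the young ones on this probe, by 0.20 (SE 0.21, adjusted p = 0.631 over samples and 0.0531 over 12 arrays), and array median scaling turned the difference, to -0.16; the direction of GE17709 turned as well, to -0.44. For aged CR against young, GE17709 went to -0.67 under array median scaling (adjusted p = 0.207) and to -0.65 with the deposited value table (adjusted p = 0.233), the largest receptor values in these settings.

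Tgfbr2, which binds the ligand first, read 7.57, 7.66, 7.58 and 7.42 in young, 7.68, 7.66, 7.70 and 7.52 in aged AL, and 7.47, 7.38, 7.45 and 7.77 in aged CR. The groups overlapped in all comparisons. Differences were 0.08 for aged AL minus young (interval -0.45 to 0.60), -0.04 for aged CR minus young (interval -0.47 to 0.39) and -0.12 for aged CR minus aged AL (interval -0.65 to 0.40). A lack of change was not shown, since these intervals reach from -0.65 to 0.60.

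Smad3, the transducer of the TGF-beta receptors, was close to background. Its probe read 4.95, 5.22, 4.87 and 5.11 in young, 4.55, 3.56, 4.28 and 5.15 in aged AL, and 5.25, 4.85, 5.14 and 5.20 in aged CR, and it was above background on 1 of 4, 1 of 4 and 4 of 4 arrays in these groups. It met the filter on dim probes only with the aged CR arrays, so its differences from the other groups are set against signals near background. The groups overlapped in each comparison. Aged CR minus aged AL was 0.72 (SE 0.21, interval 0.19 to 1.26, adjusted p = 0.854), and aged AL minus young was -0.65 (SE 0.21, adjusted p = 0.24). With 12 arrays counted separately the adjusted p was 0.0943 and 0.0576.

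Smad7, the inhibitory Smad, had a pair of probes that disagreed in size, and in sign for aged CR against young. GE13407 read 6.51 and 6.27 on young arrays 1 and 2, 7.74 and 7.83 on young arrays 3 and 4, 8.17, 8.11, 7.80 and 8.13 in aged AL, and 7.46, 7.90, 7.50 and 7.83 in aged CR. The first young sample lay 1.40 below the other, which overlapped both aged groups. Aged AL minus young was 0.96 (SE 0.61, interval -0.63 to 2.56, adjusted p = 0.455 over samples, 0.0277 over 12 arrays), and aged CR minus young was 0.58 (SE 0.50, adjusted p = 0.504 and 0.157). GE1161331 read 9.41, 9.25, 9.71 and 9.73 in young, 9.69, 9.78, 9.76 and 9.72 in aged AL, and 9.51, 9.34 and 9.48 on aged CR arrays 2 to 4, the spot on array 1 having been left out as contaminated. The restricted arrays lay below all aged AL arrays on this probe, by a difference of -0.32 (SE 0.25, interval -0.98 to 0.34, adjusted p = 1 over samples and 0.136 over 12 arrays), and aged AL minus young was 0.21 (SE 0.25), which array median scaling turned to -0.03. Aged CR minus young was -0.11 on this probe (SE 0.21, interval -0.65 to 0.43, adjusted p = 0.769), against 0.58 on GE13407, and -0.40 under array median scaling.

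Ccn2, a matrix-associated growth factor that TGF-beta induces, was the only one of the 10 genes whose 3 groups of arrays stood wholly apart with the restricted group in the middle. Its probe read 7.35, 7.47, 8.61 and 8.80 in young, 10.29, 10.05, 10.14 and 10.11 in aged AL, and 9.28, 9.22, 9.27 and 9.19 in aged CR. Aged AL minus young was 2.09 (SE 0.55, interval 0.64 to 3.54, adjusted p = 0.197), a 4.25-fold higher level, and aged CR minus young was 1.19 (SE 0.45, interval 0.0043 to 2.37, adjusted p = 0.213). Aged CR minus aged AL was -0.90 (SE 0.55, interval -2.35 to 0.55, adjusted p = 1), a 1.87-fold lower level. Over 12 arrays the adjusted p was 0.000155, 0.00591 and 0.0582 in that order. The aged CR samples differed from each other by 0.07 and the young samples by 1.30, and the pooled spread is mostly that of the young samples. Within the slide series that aged CR arrays 3 and 4 share with aged AL, the diet difference was -0.91 (adjusted p = 1). The scan still differed between the diets there.

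**Figure D2:**
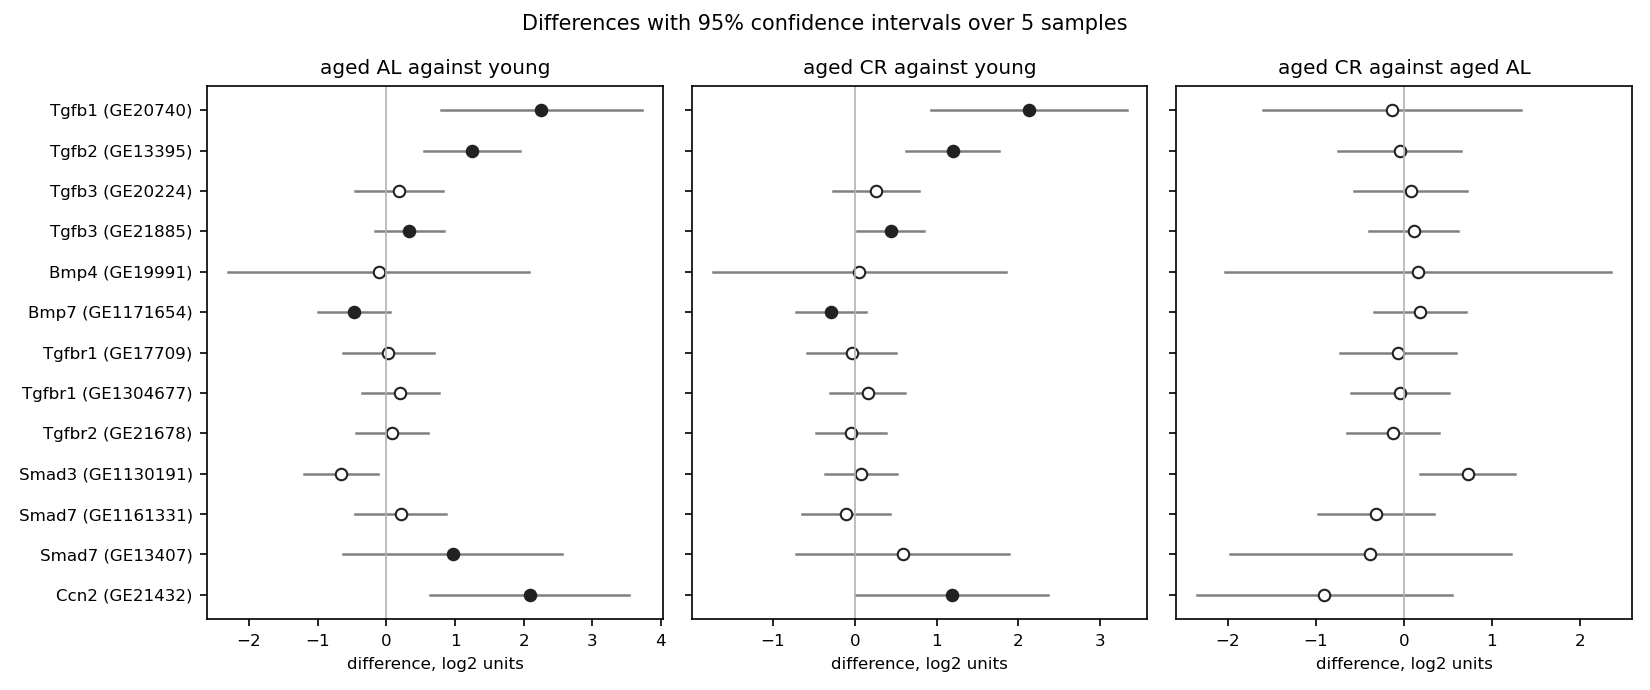
Differences in log2 units (horizontal axes, which differ between panels) over the 5 samples, with 95% confidence intervals as bars, for the 13 probes in the 3 comparisons; filled points had an adjusted p under 0.05 when the 12 arrays were counted separately. Tgfb1, Tgfb2 and Ccn2 lie furthest to the right against young, the aged CR against aged AL panel holds no filled point, and no probe passed over samples.

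None of the 13 probes passed the adjusted threshold of 0.05 over samples in any comparison, where 0.114% of all tested probes did for aged AL against young, 0.91% for aged CR against young and 0% for aged CR against aged AL. At an unadjusted p under 0.05 there were 4, 4 and 1 of 13, against 17.1%, 23.3% and 4.75% of all probes. The 4 for aged AL against young were Tgfb1, Tgfb2, Smad3 and Ccn2, the 4 for aged CR against young were Tgfb1, Tgfb2, Tgfb3 GE21885 and Ccn2, and the 1 between the diets was Smad3. Tgfb2 met the filter on dim probes through the aged arrays alone, and Smad3 only with the aged CR arrays. Their calls are therefore not independent of the filter, and Tgfb2 is also among the higher probes against young in the counts below. Counted over 12 arrays, 5 probes were higher and 1 lower in aged AL than in young, against a background of 20.9% and 27.1%, and 4 were higher and 1 lower in aged CR than in young, against 19.7% and 24.6%. Between the diets none passed, against 7.39% higher and 5.98% lower among all probes. Arrays of aged AL and young did not overlap for 5 higher and 1 lower probe, against 19.7% and 25.9% of all probes, those of aged CR and young for 4 and 1, against 17.8% and 23%, and those of the diets for 1 and 2, against 16.1% and 16.4%.

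The median difference of the 13 probes was 0.20 for aged AL against young, beside -0.05 over all tested probes. It was 0.16 beside -0.02 for aged CR against young and -0.05 beside 0.01 for aged CR against aged AL. The comparisons against young share the young arrays, and those with aged AL share the aged AL arrays, so their values are set side by side and not compared.

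Several of these genes differed between the young samples. Young arrays 3 and 4 lay more than 1 log2 unit above arrays 1 and 2 for 4 of 13 probes (Bmp4 by 2.04, Smad7 GE13407 by 1.40, Ccn2 by 1.30 and Tgfb1 by 1.29), while 10% of all tested probes differed by more than 1 in either direction and the median absolute difference was 0.315. Between the aged CR samples none of the 13 differed by more than 1, beside 0.315% of all probes, with a median of 0.132. Arrays 1 and 2 were also those with the lowest intensity and the fewest probes above background, and the part of this in the differences was not tested. Without arrays 1 and 2 the aged AL minus young difference was 1.62 for Tgfb1 and 1.44 for Ccn2, and without arrays 3 and 4 it was 2.90 and 2.74. The aged CR minus young difference was 1.48 for Tgfb1 and 0.54 for Ccn2 without arrays 1 and 2, and 2.77 and 1.83 without arrays 3 and 4. These 8 values had adjusted p between 7.34e-06 and 0.0379, because leaving out either young sample leaves only the aged CR samples to estimate the spread. In such fits 4 to 7 of the 13 probes passed for aged AL against young and 4 to 6 for aged CR against young, and between the diets Ccn2 (-0.90, adjusted p = 0.012) passed, as did Smad3, which met the filter on dim probes only with the aged CR arrays. Leaving out either aged CR sample left none.

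**Figure D3:**
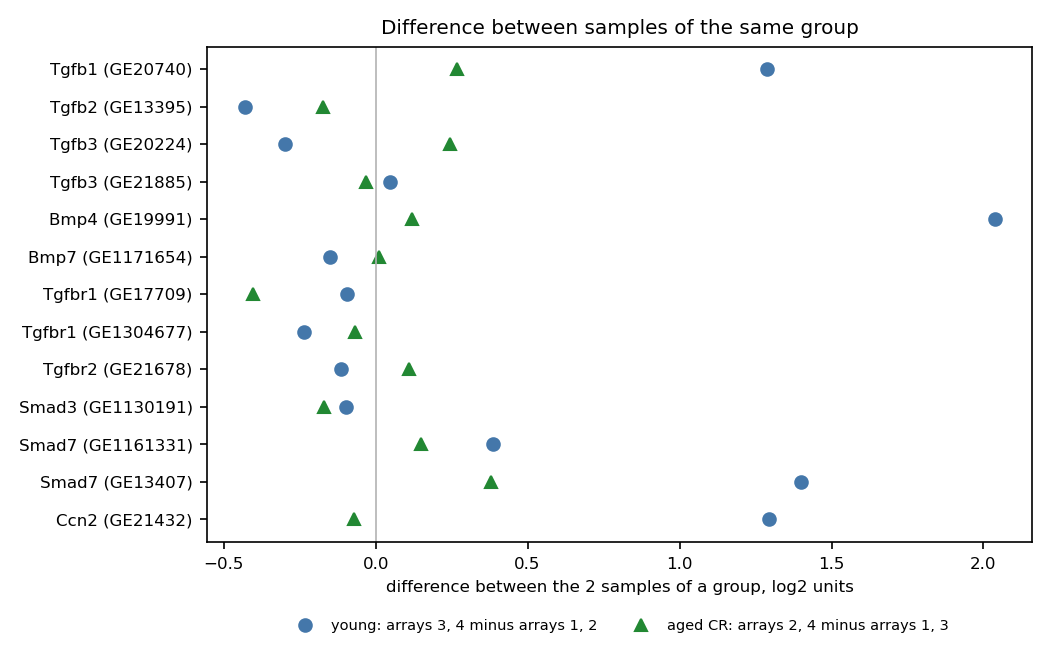
Difference in log2 units between the samples of a group for the 13 probes, young arrays 3 and 4 minus arrays 1 and 2 as circles and aged CR arrays 2 and 4 minus arrays 1 and 3 as triangles. Bmp4, Smad7 GE13407, Ccn2 and Tgfb1 lie beyond 1 unit in the young group, and no probe does in the aged CR group.

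The array patterns nearest to that of Tgfb1, the gene with the largest difference with age, were those of Ankh (Pearson r 0.995), a pyrophosphate exporter, Myo1g (0.99), a myosin of blood cells, the formin Inf2 (0.99), Irf1 (0.988), an interferon-responsive transcription factor, and Fcgr3a (0.988), an Fc receptor of leukocytes. The correlations are over 12 arrays that come from 5 samples, and describe these arrays only.

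The summed leukocyte markers lay higher on every aged array than on the young arrays, as did Tgfb1, Tgfb2 and Ccn2. Over 12 arrays, 6 of 7 macrophage and myeloid markers passed as higher in aged AL, all but Itgam (-0.21), and so did 4 of 4 tested T and B cell markers. The summed normalised intensity of 7 of 7 macrophage and myeloid markers was 10080 to 10850 on the young arrays, 21190 to 22260 on the aged AL arrays and 21950 to 23000 on the aged CR arrays. The sum of 4 of 7 T and B cell markers was 984.5 to 1251, 5132 to 5271 and 4416 to 4815, with Cd4 and Cd8a never above background. The sum of 3 of 7 fibroblast and pericyte markers was 4177 to 4667, 7895 to 8740 and 6394 to 7547, and 3 of 4 tested ones passed as higher in each aged group than in young over 12 arrays. Between the diets the genes of this list did not share a direction: aged CR minus aged AL was -0.63 for Dcn, 0.46 for Col1a1 (0.82 on its other probe), 0.08 for Thy1 and -0.03 for Pdgfrb, with a median of 0.02. The fibroblast list shares Dcn, Col1a1 and Col3a1 with the pathway lists. Fat markers (3 of 4 summed) were at 297.7 to 395.7, 1355 to 1363 and 762.4 to 891.2, with Plin1 never above background. Of these, only Cfd passed as higher over 12 arrays in aged AL than in young (by 3.18), while Adipoq was at -0.0076 and Lep was at background in young. The part of these markers in the differences of the 10 genes was not tested.

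Other cell types were read in the same way. The 1 red blood cell marker summed was at 583.3 to 615.7 on young arrays 1 and 2, 198.5 to 210.3 on young arrays 3 and 4, 714.1 to 856.2 in aged AL and 611.7 to 841.5 in aged CR. Skeletal muscle markers (3 of 4) were at 421.2 to 444, 625.8 to 708.8 and 604.2 to 773.5, with Myh4 never above background and Ckm not past the threshold over 12 arrays in any comparison, and smooth muscle markers (3 of 4) at 4852 to 5672, 6300 to 6605 and 6664 to 7711. Adrenal markers (2 of 4) were at 890.4 to 973.4 on young arrays 1 and 2, 1383 to 1391 on arrays 3 and 4, 1202 to 1445 in aged AL and 1292 to 1443 in aged CR, with Cyp11b1 never above background. On the probes summed, neither tested marker passed the threshold in any comparison. In limma over 12 arrays, another Cyp17a1 probe was at -1.06 for aged CR against aged AL (adjusted p = 0.0429) and -0.85 for aged CR against young (0.0422). Endothelial markers (5 of 5) were at 7003 to 7322 in young, 7281 to 7869 in aged AL and 6241 to 6836 in aged CR, where every array lay below all others. In limma over 12 arrays, Tek (-0.39, adjusted p = 0.0203) and Emcn (-0.42, 0.00802) passed as lower in aged CR than in aged AL. Another Tek probe was at -0.25 (0.661), and the other 3 endothelial markers did not pass between the diets. Podocyte markers (3 of 5) stayed between 3580 and 4303 on all arrays. Proximal tubule markers (5 of 6) were at 31070 to 32450 and 39930 to 42640 in the young samples, 36180 to 38770 in aged AL and 36540 to 39600 in aged CR, loop of Henle and distal tubule markers at 31030 to 37260, 28120 to 32750 and 42310 to 44810, and collecting duct markers at 3696 to 4281, 3143 to 3304 and 3339 to 3912.

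The other genes of the pathway were read from 9 lists with 152 genes, 114 of them tested. Over samples, 8 passed for aged CR against young, 6 higher and 2 lower, and none for aged AL against young or between the diets. Counted over 12 arrays, 43 were higher and 21 lower in aged AL than in young, 42 and 22 in aged CR than in young, and 10 and 6 in aged CR than in aged AL. As shares of the 114 these were 37.7% and 18.4%, 36.8% and 19.3%, and 8.77% and 5.26%, against 20.9% and 27.1%, 19.7% and 24.6%, and 7.39% and 5.98% of all tested probes, so that the lower calls against young were below the background share. The list median differences were 0.18, 0.18 and 0.02, beside -0.05, -0.02 and 0.01 over all tested probes. These shares and medians are not like for like. Each listed gene is represented by its brightest tested probe, while the background holds every tested probe, unnamed and dim ones included. The lists were also chosen with earlier results of these data known.

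The 6 genes that rose in aged CR against young came from the lists of latent TGF-beta, of target and matrix genes and of Smad partners. Ltbp2, a relative of the proteins that store latent TGF-beta in the matrix, read 5.31, 6.06, 6.21 and 6.23 on the young arrays, 8.55, 8.62 and 8.56 on aged AL arrays 2 to 4 and 9.05, 9.22, 9.07 and 9.42 on the aged CR arrays. It rose by 3.24 (SE 0.25, adjusted p = 0.0319), and 3 of 4 young arrays were above background. Tnc, the matrix protein tenascin C, read 10.32, 10.30, 10.21 and 10.25 in young and 12.60, 12.77, 12.68 and 12.65 in aged CR, a rise of 2.40 (SE 0.16, adjusted p = 0.0279). Runx1, a partner of Smads in the nucleus, read 8.25, 8.30, 8.60 and 8.57 in young and 10.67, 10.67, 10.72 and 10.40 in aged CR and rose by 2.18 (SE 0.19, adjusted p = 0.0353).

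Fn1, fibronectin, read 10.11, 10.08, 10.03 and 10.07 in young and 11.99, 11.91, 11.99 and 11.95 in aged CR and rose by 1.89 (SE 0.16, adjusted p = 0.0348). Timp1, an inhibitor of matrix metalloproteinases, rose by 1.87 (SE 0.18, adjusted p = 0.0396) and Vim, the intermediate filament of mesenchymal cells, by 1.80 (SE 0.16, adjusted p = 0.0353). The 2 genes that fell were Bmp3, a ligand that opposes other BMPs, at -2.06 (SE 0.16, adjusted p = 0.0311), and Mmp9, a protease that can release latent TGF-beta, at -1.61 (SE 0.18, adjusted p = 0.0492). In aged AL against young the same 8 differed by 2.62 (Ltbp2), 1.98 (Tnc), 1.93 (Runx1), 1.57 (Fn1), 1.68 (Timp1), 1.70 (Vim), -1.88 (Bmp3) and -1.83 (Mmp9), with adjusted p between 0.0619 and 0.0785 over samples. Their arrays of either aged group did not overlap the young arrays, which is largely given by choosing genes that passed against these young arrays. Among all tested probes, 19.7% lay wholly higher and 25.9% wholly lower in aged AL than in young. For aged CR against young these shares were 17.8% and 23%. With either aged CR sample left out none of the listed genes passed, and with either young sample left out 40 to 69 did for aged CR against young, 34 to 55 for aged AL against young and 8 between the diets.

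By role, TGF-beta target and matrix genes (26 of 30 tested) had 13 higher and 4 lower in aged AL over 12 arrays, 50% and 15.4% of them against 20.9% and 27.1% of all tested probes, with a median of 0.46. Postn, periostin, differed by 2.10 (adjusted p = 0.000157 over 12 arrays, 0.172 over samples) and Cdkn2b, a cell-cycle inhibitor, by 1.84 (1.85e-05 and 0.106), both with 1 of 4 young arrays above background. Between the diets this list had 6 higher and 1 lower over 12 arrays, 23.1% and 3.85% against 7.39% and 5.98%, with Postn at 1.13 (adjusted p = 0.0232), Zeb2, a transcriptional repressor, at 0.82 (0.00751) and Col4a1, a basement membrane collagen, at 0.45 (0.000719; 0.28 and 0.33 on another probe).

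Genes of latent TGF-beta storage and activation (14 of 17 tested) had 7 higher and 1 lower in aged AL over 12 arrays (50% and 7.14%), with a median of 0.42. Ltbp1 differed by 1.38 (adjusted p = 0.00398 over 12 arrays, 0.331 over samples), although another Ltbp1 probe was at -0.07, and Itgb5, an integrin subunit, by 1.05 (0.00222 over 12 arrays). Between the diets Fbn1, fibrillin, was at 0.90 (adjusted p = 0.000991 over 12 arrays, 0.854 over samples) and Itgav, the integrin alpha subunit that binds latent TGF-beta, at -0.66 (0.00139 and 1). Aged CR against young had 8 higher and 1 lower (57.1% and 7.14%, against 19.7% and 24.6% of all tested probes).

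Other ligands (10 of 19 tested) had 4 higher and 3 lower in aged AL over 12 arrays (40% and 30%), with a median of 0.02. Inhbb, an activin subunit, lay at 5.40 to 6.25 in young, 7.79 to 7.99 in aged AL and 6.91 to 7.42 in aged CR. The aged AL minus young difference of Inhbb was 2.04 (SE 0.29, adjusted p = 0.0842 over samples, 3e-06 over 12 arrays) and the aged CR minus aged AL difference -0.76 (SE 0.29, adjusted p = 1 and 0.0109). Gdf15, a stress-induced ligand, was at 0.94 (adjusted p = 0.00615 over 12 arrays) and -0.83 (0.035) in the same comparisons, and Bmp6 at 0.65 against young (8.62e-05).

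Inhibitors and antagonists (21 of 30 tested) had 8 higher and 5 lower in aged AL over 12 arrays (38.1% and 23.8%), with a median of 0.01. Dcn, decorin, which binds TGF-beta, lay at 10.65 to 11.07 in young, 12.35 to 12.57 in aged AL and 11.69 to 11.94 in aged CR. Its aged AL minus young difference was 1.66 (adjusted p = 4.29e-07 over 12 arrays, 0.0781 over samples) and its aged CR minus aged AL difference -0.63 (0.00246 and 1). The nuclear corepressor Tgif1 was at 2.28 (0.00078 and 0.251), Ppm1a, a phosphatase of Smads, at 1.66 (0.0309 and 0.458), with young arrays from 5.32 to 8.33, and the corepressor Skil at -0.89 (0.00711 and 0.167), for which another probe was at -0.16. The BMP antagonist Chrd was at 0.55 (0.000765), Sostdc1, another one, at 0.43 (0.0267) and Grem1 at -0.28 (0.0392) between the diets.

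Receptors other than the members (11 of 15 tested) had 1 higher, Acvrl1 at 1.06 (adjusted p = 0.00342 over 12 arrays, 0.326 over samples), and 4 lower in aged AL (9.09% and 36.4%), led by Acvr1c at -1.04 (0.00143 and 0.268). Aged CR against young had 2 higher and 6 lower (18.2% and 54.5%, against 19.7% and 24.6% of all tested probes). Other Smads and partners (9 of 14 tested) had 3 higher in aged AL over 12 arrays (33.3%): Runx1, Smad1 at 0.72 (0.00086 and 0.24), for which another probe was at 0.09, and Smad4 at 0.16 (0.0399 and 0.673), for which another probe was at 0.62.

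BMP target genes (9 of 11 tested) had 4 higher and 2 lower in aged AL over 12 arrays (44.4% and 22.2%), with a median of 0.28. The inhibitors of differentiation Id2 at 1.32 (adjusted p = 0.0043 over 12 arrays, 0.333 over samples), Id1 at 1.11 (0.00155 and 0.287) and Id3 at 0.72 (0.0135 and 0.429) were among the higher, as was the transcription factor Atoh8 at 0.90 (0.00511 and 0.363). None of the 9 passed between the diets over 12 arrays. In the CCN family, 1 of 4 tested genes passed over 12 arrays, Ccn5 at 0.83 (0.0067 and 0.173), above background on 1 of 4 young arrays. The non-Smad branch (11 of 12 tested) had 2 higher (18.2%), the GTPase Rhoa at 1.03 (0.00425) and the kinase Akt1 at 0.76 (0.000176), and 2 lower (18.2%), the kinase Mapk8 at -0.49 (0.000514) and its upstream adaptor Tab1 at -0.37 (0.00231; -0.05 on another probe), in aged AL against young.

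**Figure D4:**
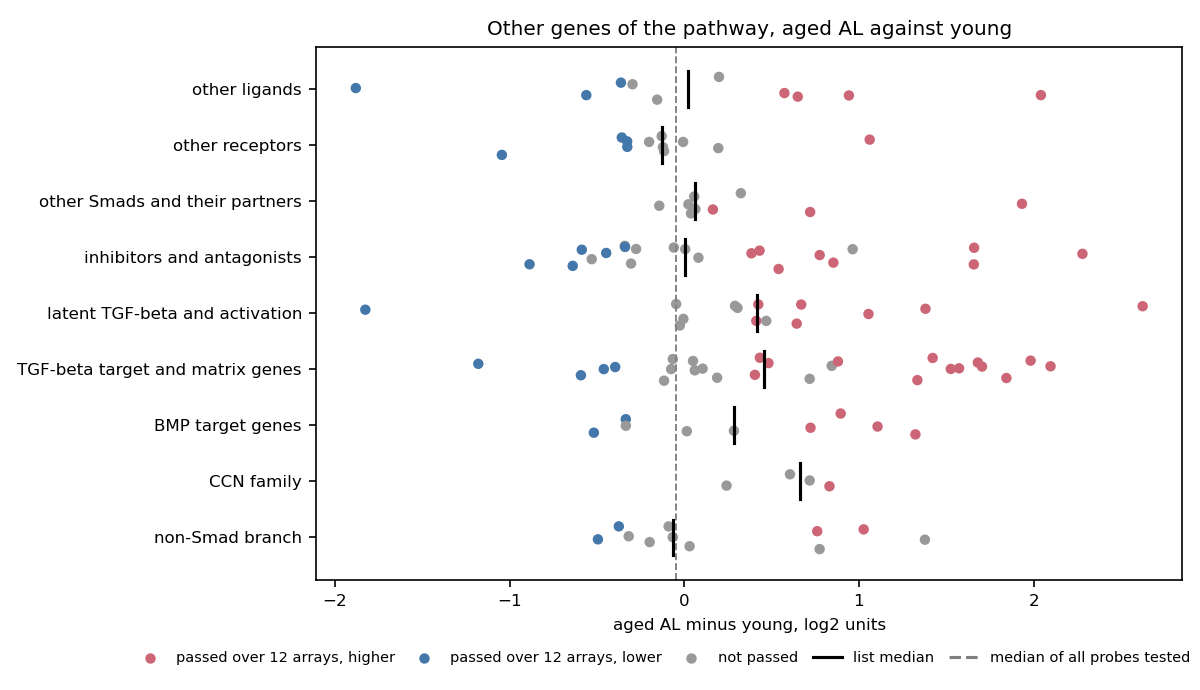
Aged AL minus young in log2 units (horizontal axis) for 114 tested genes of 9 pathway lists (a gene in 2 lists is drawn in each), coloured by the adjusted p over 12 arrays, with black bars at list medians and a dashed line at the median of all tested probes, -0.05. The medians of the target and latent TGF-beta lists lie at 0.46 and 0.42, and those of other ligands, inhibitors and the non-Smad branch near the dashed line.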

How the data were processed

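Kidney RNA of 12 samples in 3 groups was measured on CodeLink whole genome rat arrays, 1 colour and 1 array per sample. The deposited array reports give a background-subtracted intensity per spot on a linear scale and a quality flag, produced, per the file headers, with CodeLink Expression Analysis 4.1.0.29054. A deposited table of the series gives a ratio, namely median-scaled intensity over a constant per probe: the quotient was constant within 0.01 for 33848 of 33848 probes, leaving out values at the table's lower limit of 0.01. Its column medians were 0.941 to 1.21; which statistic the constant is was not stated in the sources used. It served as an alternative.

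From the intensities, spots flagged contaminated, irregular or masked were set to missing, the 33849 gene probes were quantile normalised, values were floored at 7.7 (2.94 in log2, the median of 256 negative control spots per array on the normalised scale), and log2 was taken. Probes above background on at least 4 arrays, with at least 2 values in each group, were tested (25398, 75%). Names came from the platform annotation (16878 probes) or a RefSeq accession (183); 182 probes had several symbols and were not named.

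The comparisons used limma 3.58.1 (R 4.3.3) over 5 samples, with residual df 2 and a total of 4.69 after moderation, two-sided, with Benjamini-Hochberg adjustment over all tested probes at 0.05. The lone aged AL sample is assumed to vary like the others. Arrays of a group were joined into a sample by the spread of their log2 differences over bright probes (intensity over 200), linking through shared neighbours. This spread, a scaled median absolute deviation, had to lie within the one-sided 95% upper limit for the ordinary SD of repeat control spots. The limit and the minimum intensity were set after the differences between arrays were seen. The procedure was tested on simulated data. In a gene list each gene is represented by its tested probe with the highest mean. Pathway genes were named by a rule: up to 4 per list and comparison with the largest difference among those past the threshold over samples, or over 12 arrays where fewer than 2 passed, and the 5 genes most correlated with the member of largest difference. The member values are given besides, and 1 gene that the rule names is not reported here. Marker sums use probes measured on all 12 arrays, chosen after missing spots were seen to distort them. Replicate numbers did not pair arrays (correlations of deviations -0.176 to 0.154 over 12 pairs). The alternatives changed the samples counted, blocks, scaling, floor, filter, flags and arrays left out; comparisons within a slide series were added after seeing the data. The members and lists were chosen with earlier results of these data known. Promoter sequences are from RefSeq on GRCr8; no genome was used.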

Additional observations from a re-analysis of the deposited data

How the results depend on the processing

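The count of passing probes among the 13 and of passing genes among 114 listed genes depended on what counted as a sample. For aged AL against young, aged CR against aged AL and aged CR against young, the member counts of 0, 0 and 0 became 6, 0 and 5 over 12 arrays, 6, 0 and 5 with the replicate block, and 11, 1 and 6 with slide series as a random block (correlation -0.153), and the list counts of 0, 0 and 8 became 64, 16 and 64, then 64, 15 and 62 with the replicate block, then 85, 20 and 70. The replicate numbers give no pairing, so the block is an alternative only, and it moved no list count of the 12 arrays by more than 2. For aged CR against young, the count of 8 listed genes became 5 with the deposited value table, 2 with the floor times 4 and 1 with no filter on dim probes. These are counts over all listed genes tested and need not be of the same genes. With probes above background on all arrays, aged AL against young gave 9 listed genes. The cause was not tested for the value table and the slide series, while the floor and filter change the probes and values fitted.

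Leaving out arrays or samples, the counts ran, in the same order of comparisons, from 0 to 7, 0 to 2 and 0 to 6 for the 13 probes and from 0 to 55, 0 to 8 and 0 to 69 for the listed genes. The highest came without a young sample, where the spread rests on the aged CR samples alone (1 residual df). Without 1 array at a time the members kept 0 calls, and the listed genes ranged from 6 to 10 for aged CR against young.

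No member that passed over 12 arrays changed direction by scaling. Array median scaling moved the median of all probes for aged AL against young from -0.05 to -0.22 and turned Tgfb3 GE20224 (-0.037), Tgfbr1 GE17709 (-0.44), Tgfbr1 GE1304677 (-0.16) and Smad7 GE1161331 (-0.027) there, and Tgfb3 GE20224 (-0.0075) and Tgfbr1 GE1304677 (-0.30) for aged CR against young. The deposited value table turned the first 4 (-0.026, -0.43, -0.15 and -0.015) and Tgfbr1 GE1304677 for aged CR against young (-0.29), and the slide series block turned Tgfb2 between the diets (0.036). Tgfb1, Tgfb2 and Ccn2 against young kept their direction in every alternative run.

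Leaving out arrays or samples, values that changed sign ranged, for aged AL against young, from -1.13 to 0.91 (Bmp4) and -0.021 to 0.13 (Tgfbr1 GE17709). For aged CR against young they ranged from -0.96 to 1.07 (Bmp4), -0.24 to 0.16 (Tgfbr1 GE17709), -0.14 to 0.054 (Tgfbr2), -0.016 to 0.16 (Smad3), -0.30 to 0.084 (Smad7 GE1161331) and -0.12 to 1.28 (Smad7 GE13407). Between the diets they ranged from -0.27 to 0.0019 (Tgfb1), -0.17 to 0.11 (Tgfb2), -0.042 to 0.20 (Tgfb3 GE20224) and -0.27 to 0.13 (Tgfbr1 GE17709). The other alternatives, within a slide series included, kept direction and call. Signal over background limits Smad3, Tgfb2 in young and the 3 untested probes, and 5 samples limit all p-values.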
